A study of Mus musculus with 32 samples.

Results

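The genes described here belong to the mouse major histocompatibility complex (MHC), which is named H2, and to the interferon response, and they were measured in brown adipose tissue. Members were all probes of the deposited expression table whose gene name in the array files began with H2-, Ifit, Ifitm, Irf, Isg, Oas or Gbp. They made up 106 of the 37304 probes of that table and 74 of its 24521 gene names, of which 29 were H2- names and 45 were others. The array held 140 such probes under 90 names, and 34 probes, which left 16 names without a value, were too dim to enter the table. Of the 74 genes, 64 passed the brightness filter on at least 26 of the 32 arrays and 10 passed it only through at least 6 arrays of 1 group.

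MHC class I molecules display peptides made inside a cell to T cells, and class II molecules, which are made mainly by macrophages, dendritic cells and B cells, display peptides taken up from outside. In the mouse, H2-K1 and H2-D1 encode classical class I chains (class Ia), whereas the H2-Q, H2-T and H2-M genes encode nonclassical ones (class Ib). Interferons bind receptors on the cell surface, and signalling through STAT proteins and interferon regulatory factors (Irf genes) then induces antiviral effectors such as the Oas, Ifit, Ifitm, Isg15 and Gbp genes. The H2 complex is among the most variable stretches of the mouse genome, and inbred strains are told apart by their H2 haplotype.

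RNA was taken from interscapular brown fat of 4 groups of mice, each represented by 8 arrays. Total ChREBP KO mice were Mlxipl-null and lacked both isoforms of ChREBP, a glucose-responsive transcription factor. ChREBPβ KO mice carried a CRISPR/Cas9 deletion of the whole exon that only the β isoform uses, made with guides on either side of it. Each line had WT mice of its own, here called total-line WT and β-line WT, and neither deletion was limited to a tissue. The study's methods give C57BL6/J males for the arrays, and the labels name the line but neither an age nor an H2 haplotype. Before sampling, every mouse went 24 hours without food and then had food and 20% glucose water for 18 hours. The paper's legend for these data gives its group sizes as numbers of mice. The labels do not say that each array is a separate animal, so p values set a difference against the spread between these arrays.

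Levels are log2 normalized intensities of a gene's brightest probe, which can be compared between arrays but not between genes. Differences carry the standard error (SE) of a linear model fitted with limma to all kept probes, and a gene was called when its p value, adjusted over all probes, was under 0.05. The brightest Mlxipl probe was lower by 2.48 in total ChREBP KO arrays (log2 difference -2.48) and showed a log2 difference of -1.50 in ChREBPβ KO arrays. Summed brown fat markers, among them Ucp1 and Cidea, ran from 19.94 to 20.14 in total-line WT, from 20.18 to 20.28 in total ChREBP KO, from 20.04 to 20.19 in β-line WT and from 20.09 to 20.23 in ChREBPβ KO arrays. The groups of the total line did not overlap in this sum, and 6 of the 8 markers were called between them, 4 higher and 2 lower in KO arrays, with differences from -3.16 to 2.19. The arrays had been washed in 4 batches, each of which held all 4 groups. Total-line WT replicate 5 was the highest array of its group in 13 of 17 interferon-induced genes (the Ifit, Isg15, Isg20 and Oas genes and Irf7), by a median of 0.76 above the group's mean. β-line WT replicate 6 was the highest of its group in 12 of these 17 genes, in 15 of 20 class I genes and in 6 of 8 class II genes. The calls of members by their brightest probes were compared with a fit without these 2 arrays. This was done for total ChREBP KO against WT and for the WT groups. Where such a call printed below was lost or gained, this is stated beside it. Calls of dimmer probes and of genes that are not members were not checked in this way.

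In total ChREBP KO arrays, 11 of 32 Ifit, Ifitm, Isg, Oas and Gbp genes were called lower and 2 higher, 4 of 8 class II genes were called lower and 1 higher, and 9 of 20 class I genes were called lower and 5 higher. Of the 74 genes, 38 were called between total ChREBP KO and total-line WT arrays, beside 44.1% of all 24523 genes tested. Lower calls numbered 26, beside 21.1% of all genes, and higher calls 12, beside 22.9% of all genes. The median difference of the 74 genes was -0.15, and that of all genes was 0.01. In 16 of the 74 genes the 8 KO and 8 WT arrays did not overlap, beside 16.6% of all genes, so it was the share of lower calls that stood above the background. Without the 2 high arrays, 36 genes were called, 24 of them lower. In bulk tissue, fewer cells of a type and less RNA per cell cannot be told apart.

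The Oas genes encode oligoadenylate synthetases, which sense double-stranded RNA and activate an RNA-degrading enzyme. Of 10 Oas genes measured, 5 were called, all lower, with a median of -0.51 over the 10. Oas1a ranged from 9.04 to 11.02 in total-line WT arrays, with a median of 9.37. In total ChREBP KO arrays it ranged from 8.03 to 8.68, with a median of 8.36, so that every KO array lay below every WT array. Its difference was -1.23 ± 0.20 (SE, n = 8 arrays per group, limma adjusted p = 6.63e-06), a 2.35-fold lower level, and -1.02 without the 2 high arrays. Oasl2, a member of the family with a ubiquitin-like tail, had WT values from 7.81 to 9.52 around a median of 7.98. Its KO values ran from 6.93 to 7.46 around 7.08, again with no overlap, and the difference was -1.13 ± 0.18 (adjusted p = 4.18e-06). Oas1f (-1.08), Oas2 (-0.91) and Oasl1 (-0.88) were also lower, with adjusted p values of 8.73e-06, 7.95e-05 and 5.74e-05. The other 5 family members, Oas1b, Oas1c, Oas1d, Oas1e and Oas1g, had differences between -0.15 and 0.05, and none was called.

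**Figure D1:**
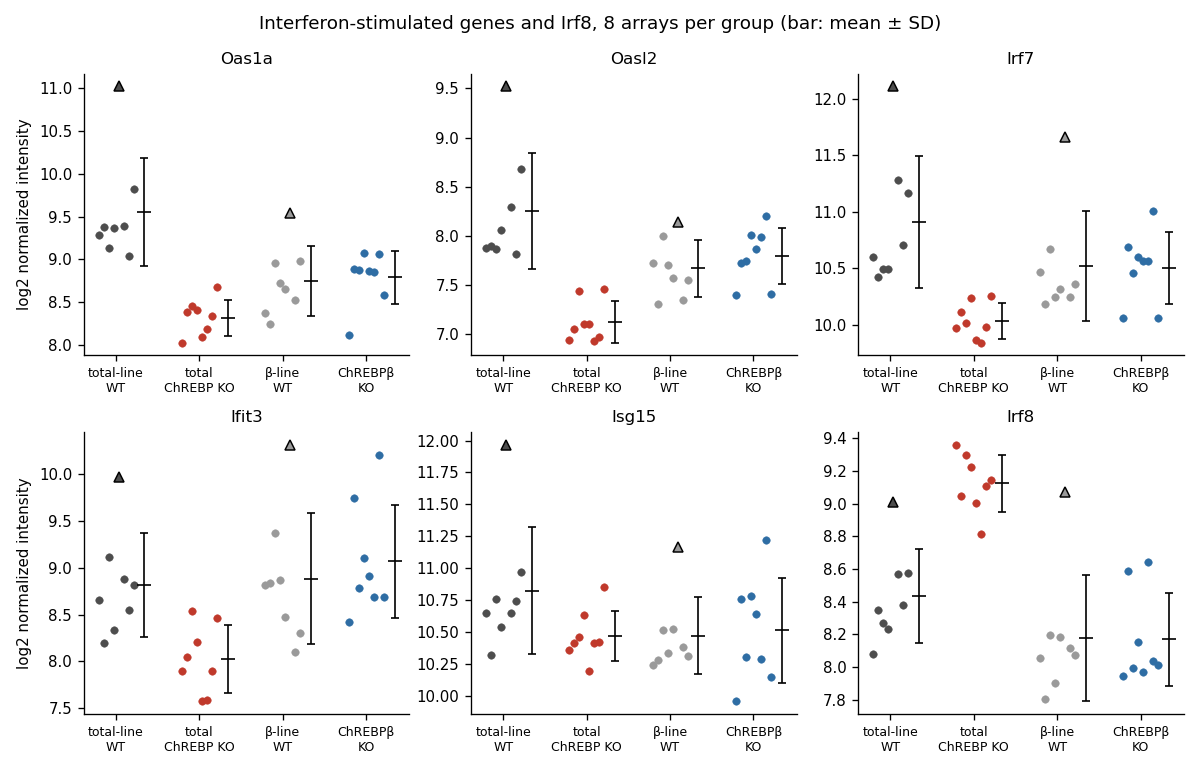
Log2 normalized intensity (y axis) of 5 interferon-induced genes and Irf8 on the 8 arrays of each group (x axis), with the mean and SD as bars. Triangles mark total-line WT replicate 5 and β-line WT replicate 6. For Oas1a, Oasl2 and Irf7 all total ChREBP KO arrays lay below all total-line WT arrays, and for Irf8 the KO median of 9.13 lay above the WT median of 8.36.

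The Ifit genes encode proteins that bind viral RNA. Of 4 measured, 3 were called, all lower, with a median of -0.66. Ifit2 fell by 0.67 on the log2 scale (SE 0.10, adjusted p = 1.19e-06) and Ifit1 by 0.65 (SE 0.18, adjusted p = 0.00337). Ifit3 ranged from 8.19 to 9.97 (median 8.74) in WT arrays and from 7.57 to 8.54 (median 7.98) in KO arrays, a difference of -0.78 ± 0.27 (adjusted p = 0.0176). The ranges of Ifit3 overlapped, and its call was lost when total-line WT replicate 5 alone was left out, with a difference of -0.62. Ifit3b had a difference of -0.54 (adjusted p = 0.0818).

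Isg15, a ubiquitin-like protein that is attached to other proteins after interferon, did not pass the test. It ranged from 10.32 to 11.96 (median 10.70) in WT arrays and from 10.20 to 10.85 (median 10.42) in KO arrays, with a difference of -0.35 ± 0.18 (adjusted p = 0.105) that was -0.19 without the 2 high arrays. Neither of the 2 Isg genes was called, at an adjusted or an unadjusted p under 0.05 (0 of 2 genes for each). Ifitm proteins sit in membranes and block virus entry, and 3 of 6 Ifitm genes were called. Ifitm3 fell by 0.37 on the log2 scale (SE 0.11, adjusted p = 0.00651) and Ifitm6 by 0.67 (SE 0.16, adjusted p = 0.00113). The brightest probe of Ifitm7 was higher by 0.58 (adjusted p = 1.83e-05), but another Ifitm7 probe had a difference of -0.30 (adjusted p = 0.00266), so that no direction can be given for that gene.

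Gbp genes encode guanylate-binding proteins, large GTPases that act against pathogens inside cells and respond mainly to interferon gamma. Only 2 of 10 were called, with a median of 0.07 over the 10. Gbp7 was lower by 0.29 (log2 difference -0.29, adjusted p = 0.042), a call that was lost without the 2 high arrays (-0.23, adjusted p = 0.117), and the 2 probes of Gbp5 were called in opposite directions (0.17 and -0.43). Gbp2 had a median of 10.52 in WT and 10.81 in KO arrays, with KO values from 10.42 to 10.96 inside the WT range, and a difference of 0.13 ± 0.13 (adjusted p = 0.459). The difference of Gbp3 was -0.27 ± 0.15 (adjusted p = 0.141). Lower calls thus numbered 5 of 10 Oas, 3 of 4 Ifit and 1 of 10 Gbp genes, and a difference between the families was not tested.

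Of the 9 interferon regulatory factors measured, 4 were called, 3 higher and 1 lower. Irf7, the factor that amplifies the type I interferon response and is itself induced by interferon, ranged from 10.43 to 12.11 (median 10.65) in WT and from 9.84 to 10.26 (mean 10.04) in KO arrays. All KO arrays lay below all WT arrays, with a difference of -0.88 ± 0.20 (adjusted p = 0.000533), and the other Irf7 probe had -0.67 (adjusted p = 0.00269). Irf8, which directs the development of macrophages, dendritic cells and B cells, ranged from 8.08 to 9.01 (median 8.36) in WT and from 8.81 to 9.36 (median 9.13) in KO arrays. Its ranges overlapped only between 8.81 and 9.01, and the difference was 0.69 ± 0.14 (adjusted p = 0.000143). Irf3, the factor that switches on interferon genes after virus sensing, was higher by 0.25 ± 0.05 (adjusted p = 0.000314). Irf1, an interferon gamma-induced activator of MHC genes, was higher by 0.34 ± 0.13 (adjusted p = 0.0425), and its call was lost in 8 of 32 fits that left out 1 array. Irf4, known in brown fat as a regulator of thermogenic genes, had a difference of -0.36 ± 0.28 (adjusted p = 0.305), and Irf9, which joins STAT proteins in the factor that binds interferon-induced promoters, had 0.04 ± 0.10 (adjusted p = 0.791). Irf2 and Irf5 were not called by their brightest probes, but a dimmer probe of Irf2 (0.43) was. The dimmer probes of Irf3 (0.11) and Irf1 (0.13) were not called.

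The regulators and other targets of interferon gave a mixed picture. Among 14 measured genes for interferon receptors and signalling, 4 were called. They included Usp18, which takes Isg15 off proteins and damps the receptor and had a difference of -1.04, and Ifnar1 (0.29) and Jak2 (0.27), which were higher. Of 12 genes for sensors of nucleic acids and their adaptors, 5 were higher and 2 lower, the latter being Mavs (-0.40) and Ifih1 (-0.27). Of 25 further interferon-induced genes, 14 were called and 11 of these were lower. The lower ones included Rtp4 (-1.32), Ifi44 (-0.87), Rsad2 (-0.68) and Mx2 (-0.54), and the higher ones were Cxcl10 (0.82), Ifi27 (0.47) and Dtx3l (0.44).

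Promoters are printed below for 2 antiviral genes because the interferon-stimulated response element, the site bound by STAT and Irf proteins, can be read in them. RefSeq promoters of 300 bases, 250 before and 50 after the start of the gene (assembly GRCm38.p6), were at hand for 54 of the 74 genes. Both printed promoters lie on the minus strand, Oas1a at chr5:120907476-120907775 and Isg15 at chr4:156200769-156201068. They are written 5′ to 3′, and capitals mark the matches to a pair of GAAA stretches with 2 bases of any kind between them, which overlap one another.
Oas1a: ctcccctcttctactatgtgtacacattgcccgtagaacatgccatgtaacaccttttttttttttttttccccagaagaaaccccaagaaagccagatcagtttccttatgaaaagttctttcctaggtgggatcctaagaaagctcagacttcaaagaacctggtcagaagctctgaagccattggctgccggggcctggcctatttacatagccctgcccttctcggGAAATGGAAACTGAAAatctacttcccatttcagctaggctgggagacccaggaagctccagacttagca
Isg15: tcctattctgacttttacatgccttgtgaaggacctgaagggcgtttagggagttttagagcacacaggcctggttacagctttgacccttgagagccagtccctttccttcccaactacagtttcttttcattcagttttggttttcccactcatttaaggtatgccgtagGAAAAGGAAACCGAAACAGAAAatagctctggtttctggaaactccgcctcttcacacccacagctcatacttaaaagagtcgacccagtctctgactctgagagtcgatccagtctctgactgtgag

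This motif, GAAA and GAAA at a distance of 2 bases, searched on both strands with overlapping matches counted, was found in 15 of the 54 member promoters and in 3.99% of 27025 genes with a promoter. Of 16 Ifit, Isg15, Isg20, Oas and Gbp promoters 11 held it, and of 20 H2- promoters 2 did. The first match began 20 bases before the start of Oas1a and 78 bases before that of Isg15. Between total ChREBP KO and WT arrays, 6 of the 15 genes with a match were called lower, as were 14 of the 39 genes without one. Oas1a was called lower and Isg15, with 3 matches, was not called, and a difference between genes with and without the motif was not tested.

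Class I genes carried the largest single difference among the 74 genes. H2-Q10, which encodes a secreted class Ib molecule known mainly from liver and serum, ranged from 14.35 to 14.93 (median 14.59) in total-line WT arrays and from 12.63 to 13.23 (median 12.95) in total ChREBP KO arrays. All 8 KO arrays lay below all 8 WT arrays, with a difference of -1.70 ± 0.10, or 3.25-fold (adjusted p = 4.66e-15). In the β line, values ran from 14.13 to 14.71 in WT and from 13.83 to 14.60 in KO arrays, overlapping the total-line WT range. All 4 H2-Q10 probes were called lower in total ChREBP KO arrays, with differences from -1.72 to -0.94. Of 8 liver marker genes, 1 was called in the same comparison (Apoc3, -1.58), and the summed liver markers ran from 11.46 to 15.47 in total-line WT, from 11.60 to 13.48 in total ChREBP KO, from 11.94 to 17.41 in β-line WT and from 11.56 to 17.10 in ChREBPβ KO arrays. The medians of that sum were 12.29, 11.82, 14.06 and 14.88 in the same order, with ranges that overlapped between all groups. The part of liver RNA in H2-Q10 levels was not tested.

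One H2-Q10 probe is printed with the longest run that it shares with a probe of another member. Probes were compared with probes and not with whole transcripts, so binding of other class I RNA to it was not tested. It maps to chr17:35610036-35610095 on the plus strand of mm9, the build of the array files, and capitals mark its longest run shared with a probe of another member, H2-M2.
H2-Q10 probe: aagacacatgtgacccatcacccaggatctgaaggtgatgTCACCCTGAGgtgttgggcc

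Probes of H2-K1, H2-L and H2-T23 shared a longer run, of 29 bases, which is printed in capitals below. These probes map to chr17:34133984-34134043 (minus strand), chr17:35403191-35403250 (plus strand) and chr17:36167338-36167574 (minus strand) of mm9, and the stretch given for the last is longer than the 60 bases of the probe.
H2-K1 probe: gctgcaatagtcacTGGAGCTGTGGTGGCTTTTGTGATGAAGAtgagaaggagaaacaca
H2-L probe: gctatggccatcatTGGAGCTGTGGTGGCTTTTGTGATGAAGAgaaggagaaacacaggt
H2-T23 probe: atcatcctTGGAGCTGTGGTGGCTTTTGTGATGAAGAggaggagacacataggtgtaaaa

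These 3 probes had similar differences between total ChREBP KO and WT arrays, -0.19, -0.27 and -0.23. RNA of a near-identical class I gene may bind such a probe, so the values of these probes cannot be assigned to 1 gene with certainty. The same holds for other close copies in the H2, Oas, Ifit and Gbp families. For H2-L and H2-T23 the printed probe is the brightest of the gene. The printed H2-K1 probe is the dimmer of 2. Levels of H2-K1 given here come from the brighter one, whose longest run shared with a probe of another gene was 9 bases. In all, 4 of the 106 member probes shared a run of 20 bases or more with a probe of another gene, and the longest such run of any H2-Q10 probe was 11 bases.

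Across the 20 class I genes, 14 were called, 5 higher and 9 lower. By name, 4 genes were grouped as class Ia: the classical H2-K1 and H2-D1, and H2-K2 and H2-L. Whether H2-K2 and H2-L are classical class I genes of these mice was not tested, and only their calls passed with all arrays. H2-K2 was lower by 0.51 (difference -0.51 ± 0.07, adjusted p = 4.25e-07) and H2-L had -0.27 ± 0.09 (adjusted p = 0.0166). A dimmer probe of H2-L had -0.145 and was not called. H2-K1 ranged from 15.19 to 15.68 (median 15.52) in WT and from 15.14 to 15.41 (median 15.33) in KO arrays, and its difference of -0.19 ± 0.09 was not called (adjusted p = 0.0664) until the 2 high arrays were left out (-0.19, adjusted p = 0.0322). H2-D1 had -0.16 ± 0.10 (adjusted p = 0.186). The 4 differences of this group were all negative, from -0.51 to -0.16.

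Of the 16 class Ib genes, 12 were called, 5 higher and 7 lower. H2-T22 and 3 of its neighbours were among the higher ones. H2-T22, whose product is a ligand of gamma delta T cells, ranged from 11.03 to 11.42 (median 11.12) in WT and from 11.68 to 12.07 (median 11.83) in KO arrays, with no overlap and a difference of 0.67 ± 0.08 (adjusted p = 2.59e-08). Its close relatives H2-T9 (0.67) and H2-T10 (0.64) and the neighbouring H2-T3 (0.46) were higher with no overlap either. The lower genes besides H2-Q10 were H2-Bl (-0.68), H2-M2 (-0.53), H2-Q7 (-0.42), H2-M11 (-0.40), H2-T24 (-0.37) and H2-T23 (-0.23). H2-T23, which encodes Qa-1, a ligand of inhibitory natural killer cell receptors, was barely past the threshold (adjusted p = 0.0467), lost its call in 14 of 32 fits that left out 1 array, and had a dimmer probe called higher (0.28, adjusted p = 0.00197). Taking the mean of its probes gave 0.026. H2-M3, which presents formylated peptides, had -0.18 ± 0.08 (adjusted p = 0.0814).

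**Figure D2:**
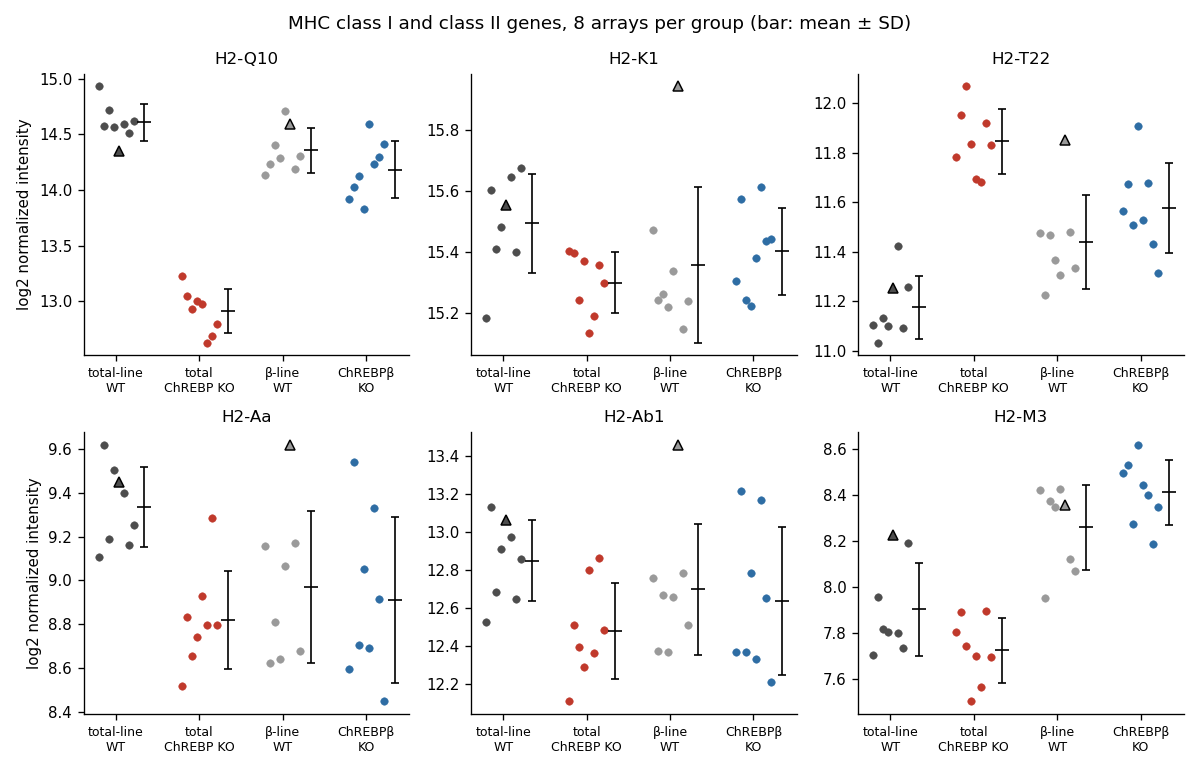
Log2 normalized intensity (y axis) of 4 class I genes (H2-Q10, H2-K1, H2-T22, H2-M3) and 2 class II genes (H2-Aa, H2-Ab1) on the 8 arrays of each group (x axis), with the mean and SD as bars. Triangles mark total-line WT replicate 5 and β-line WT replicate 6, the latter being the highest β-line WT array for H2-K1 at 15.94. Total ChREBP KO arrays stood apart from total-line WT arrays below for H2-Q10 and above for H2-T22.

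Of 8 class II genes measured, 4 were called lower and 1 higher in total ChREBP KO arrays, and 3 were not called. The median of the 8 was -0.25. H2-Aa, which encodes the alpha chain of the I-A molecule, ranged from 9.11 to 9.62 (median 9.33) in WT and from 8.52 to 9.29 (median 8.79) in KO arrays. The ranges overlapped between 9.11 and 9.29, and the difference was -0.52 ± 0.14 (adjusted p = 0.00332). H2-Ab1, the beta chain of the same molecule, had -0.37 ± 0.15 (adjusted p = 0.0401), and all 4 of its probes were called lower, with differences from -0.48 to -0.37. H2-Eb1, the beta chain of I-E, had -0.26 ± 0.11 (adjusted p = 0.0496), and H2-DMa, which helps to load peptides, had -0.27 ± 0.09 (adjusted p = 0.0194). The calls of H2-Ab1 and H2-Eb1 were lost in 11 and 21 of 32 fits that left out 1 array, and that of H2-Eb1 also without the 2 high arrays. With slide as a fixed block, the calls of H2-Ab1 and H2-DMa were lost. H2-Ob, a regulator of peptide loading in B cells, had 0.07 ± 0.10 (adjusted p = 0.624). H2-Eb2 was higher by 0.22 (adjusted p = 0.0213) but was well above background on only 4 WT and 7 KO arrays. Its probe passed the brightness filter only through the KO groups. This call, counted here and in the totals, is therefore no support for a higher level in total ChREBP KO arrays.

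Other genes of antigen processing did not move as a body. Of 22 measured, 7 were higher and 6 lower in total ChREBP KO arrays. The lower ones included Ctss (-0.96), the protease that cuts the class II chaperone, Ifi30 (-0.90), a reductase of the class II route, Tapbpl (-0.67) and Ciita (-0.55), the master activator of class II genes. The higher ones included Psme1 (0.50), a proteasome activator, and Tap2 (0.27), a subunit of the peptide transporter. B2m, the light chain shared by class I molecules, had a difference of -0.00 (adjusted p = 0.992), and Cd74, the class II chaperone, had -0.24 (adjusted p = 0.19).

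Markers of macrophages were lower in the same arrays. Of 8 macrophage markers measured, 7 were called lower, among them Mrc1 (-1.04), Cd163 (-0.99), Adgre1 (-0.80), Lyz2 (-0.76) and Csf1r (-0.53), and Cd14 was not called. The summed macrophage markers ran from 13.79 to 14.71 (median 14.20) in total-line WT and from 13.25 to 13.74 (median 13.51) in total ChREBP KO arrays, with no overlap. Of 5 dendritic cell markers, 2 were lower (Flt3, -0.68, and Cd209a, -0.46), and of 5 B cell markers, 2 were higher. The summed B cell markers ran from 9.26 to 9.61 in WT and from 9.53 to 10.11 in KO arrays. The part of these cell types in the lower class II and interferon-induced genes, and in the higher Irf8, was not tested.

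**Figure D3:**
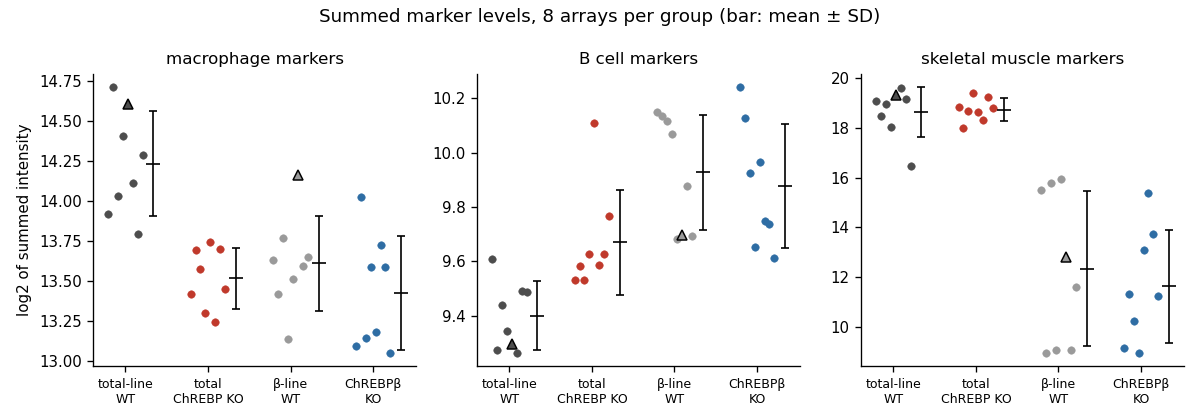
Log2 of the summed linear intensity (y axis) of macrophage, B cell and skeletal muscle marker genes on the 8 arrays of each group (x axis), with the mean and SD as bars and triangles for total-line WT replicate 5 and β-line WT replicate 6. Total-line WT arrays had the highest median macrophage sum, 14.20, with a range that overlapped those of both β-line groups. The β-line arrays had muscle sums with medians of 12.22 and 11.27 against 19.03 and 18.74 in the total line.

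Loss of the β isoform alone came with few calls among these genes. Between ChREBPβ KO and β-line WT arrays, 1 of the 74 genes was called, beside 2.70% of all genes, and 4 had an unadjusted p under 0.05. The median difference of the 74 genes was 0.02, and differences ran from -0.34 to 0.28. The called gene was Oas1e, which ranged from 4.82 to 5.08 (median 4.95) in WT and from 4.95 to 5.57 (median 5.16) in KO arrays. Its difference was 0.23 ± 0.06 (adjusted p = 0.0491), the ranges overlapped, and the call was lost in 24 of 32 fits that left out 1 array and in the fit without the 2 high arrays. No MHC gene was called in this comparison by limma (0 of 20 class I and 0 of 8 class II genes), and 1 class I gene and 0 class II genes had an unadjusted p under 0.05. For the genes with the largest total ChREBP KO differences, the values in the β line were 0.04 ± 0.20 for Oas1a, 0.12 ± 0.18 for Oasl2, -0.02 ± 0.20 for Irf7, -0.01 ± 0.14 for Irf8 and -0.18 ± 0.10 for H2-Q10.

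A test of the difference between these KO effects called 27 of the 74 genes, beside 25.2% of all genes. Positive values mean that the ChREBPβ KO effect was above the total ChREBP KO effect, and 18 of the 27 were positive. H2-Q10 had the largest value, 1.53 ± 0.14 (adjusted p = 8.28e-10), followed by Oas1a (1.27, adjusted p = 0.00105), Oasl2 (1.25, adjusted p = 0.000349), Oas1f (1.12, adjusted p = 0.00119) and Oasl1 (0.89, adjusted p = 0.00533). Irf7 (0.86, adjusted p = 0.0236) and Oas2 (0.81, adjusted p = 0.0156) were called in the same direction. Irf8 (-0.70, adjusted p = 0.00917) and H2-T22 (-0.53, adjusted p = 0.000592) were called in the other. With slide as a fixed block, the calls of Irf7 (0.86, adjusted p = 0.0918) and Irf8 (-0.51, adjusted p = 0.115) were lost. By class, 13 of the 20 class I genes, 5 of 10 Oas genes and 2 of 4 Ifit genes were called, but 0 of 8 class II genes. For class II, the total ChREBP KO effect was therefore not shown to differ from the ChREBPβ KO effect. Without the 2 high arrays 34 genes were called, 26 of them positive.

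WT mice of the 2 lines also differed in these genes, about as often as in the average gene. This comparison and the total ChREBP KO comparison share the total-line WT arrays, so a high or low value in those arrays enters both. Of the 74 genes, 28 were called between β-line WT and total-line WT arrays, beside 38.9% of all genes. Higher calls numbered 14, beside 24.8% of all genes, and lower calls 14, beside 14.1%. The median was -0.00, against 0.05 over all genes. In 1 of the 74 genes, Ifitm6, the WT groups did not overlap, beside 9.46% of all genes. Without the 2 high arrays, 31 genes were called, 12 higher and 19 lower.

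Among interferon-induced genes, 3 of 6 Ifitm genes were called lower in β-line WT arrays, 6 of 10 Oas genes were called lower and 1 higher, and 3 of 10 Gbp genes were called higher. Ifitm6 ranged from 6.27 to 7.63 (median 7.04) in total-line WT and from 5.33 to 6.16 (median 5.94) in β-line WT arrays, a difference of -1.06 ± 0.16 (adjusted p = 5.42e-06). Ifitm1 had -0.84 ± 0.16 (adjusted p = 7.88e-05), with ranges that overlapped. The remaining Ifitm call was that of Ifitm5 (-0.26), which was well above background on only 4 β-line WT arrays. Its probe passed the brightness filter only through 6 total-line WT arrays, the group where it was higher. This call, counted here and in the totals, is therefore no support for a lower level in β-line WT arrays. Oas1a ranged from 8.25 to 9.54 (median 8.69) in β-line WT arrays, and its difference from total-line WT arrays was -0.80 ± 0.20 (adjusted p = 0.00179) with all arrays and -0.71 without the 2 high ones. Oas1f (-0.72), Oasl2 (-0.58), Oas2 (-0.49) and Oasl1 (-0.48) were lower as well, and the calls of Oas2 and Oasl1 were lost when total-line WT replicate 5 was left out, with differences of -0.35 and -0.37. The call of Oas2 was also lost without total-line WT replicate 8 or without β-line WT replicate 1 or 2. No Ifit gene (0 of 4) and no Isg gene (0 of 2) was called, and at an unadjusted p under 0.05 the counts were 0 and 1.

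Gbp4 ranged from 7.96 to 9.15 (median 8.56) in total-line WT and from 8.92 to 9.82 (median 9.29) in β-line WT arrays, a difference of 0.77 ± 0.15 (adjusted p = 0.000126). Gbp11 (0.50) and Gbp8 (0.39) were higher too, and 3 of the 10 Gbp genes were called. Of the 9 Irf genes, Irf1 (0.40), Irf2 (0.39) and Irf3 (0.25) were higher and Irf5 (-0.68), a factor of macrophage inflammatory genes, was lower. Each of these genes had a dimmer probe that was not called, at 0.17 for Irf1, 0.14 for Irf2, 0.06 for Irf3 and -0.12 for Irf5. The call of Irf1 was lost without total-line WT replicate 3, with a difference of 0.33. Irf7 (-0.39, adjusted p = 0.118) and Irf8 (-0.26, adjusted p = 0.146) were called only without the 2 high arrays, at -0.38 and -0.30.

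The genes grouped by name as class Ia did not pass the test between the WT groups (0 of 4 by limma, and 0 at an unadjusted p under 0.05). With the 2 high arrays left out, H2-K1 was called at -0.21 (adjusted p = 0.0216) and H2-K2 at -0.20 (adjusted p = 0.00879), as was the class Ib gene H2-M2 at -0.22 (adjusted p = 0.0048). Of the 16 class Ib genes 6 were called. H2-M3 ranged from 7.70 to 8.23 (median 7.81) in total-line WT and from 7.95 to 8.43 (median 8.35) in β-line WT arrays, with a difference of 0.36 ± 0.08 (adjusted p = 0.000992) and overlapping ranges. H2-T22 (0.26), H2-T10 (0.23) and H2-T3 (0.22) were higher, although H2-T10 was not called without the 2 high arrays (0.18, adjusted p = 0.14), and H2-Bl (-0.36) and H2-Q10 (-0.25, adjusted p = 0.0463) were lower. The call of H2-Q10 was lost in 15 of 32 fits that left out 1 array, with differences from -0.30 to -0.21. Class II genes had 3 calls of 8, H2-Aa (-0.36, adjusted p = 0.039) and H2-DMa (-0.29) lower and H2-Oa (0.30) higher, and the call of H2-Aa was lost in 8 of 32 fits. The call of H2-Oa was lost without the 2 high arrays (0.25, adjusted p = 0.061).

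The WT groups differed in their cell type markers too. Of 8 macrophage markers, 7 were lower in β-line WT arrays, with Mrc1 at -1.14 and Adgre1 at -0.99, and their sum ran from 13.14 to 14.17 against 13.79 to 14.71 in total-line WT arrays. Of 5 B cell markers, 4 were higher, with sums from 9.68 to 10.15 against 9.26 to 9.61. All 8 skeletal muscle markers were lower, with differences from -7.15 to -5.82. The part of these cell types in the differences of Ifitm6, Irf5, H2-Aa and the other members was not tested.

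The labels give no H2 haplotype for either line, and the haplotype was not tested. The values that follow cannot decide it, because no array of a stated haplotype was at hand for comparison. H2-Ea-ps, named for the alpha chain of I-E that mice of the C57BL/6 haplotype are known to lack, had a probe that was well above background on 0 of 32 arrays, in all 4 groups alike. The H2- members lay on chromosome 17 between positions 34111920 and 37618439 of mm9, a stretch of 3.51 Mb. In that stretch, 9 of 28 H2- members were called between the WT groups, a share of 32.1%, beside 36.4% of 151 other genes there and 39.7% of 1048 genes on the rest of the chromosome. Between total ChREBP KO and WT arrays the shares were 67.9% of the H2- members, 34.4% of the other genes in the stretch and 43.4% of the rest of the chromosome. Both printed comparisons use the total-line WT arrays.

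**Figure D4:**
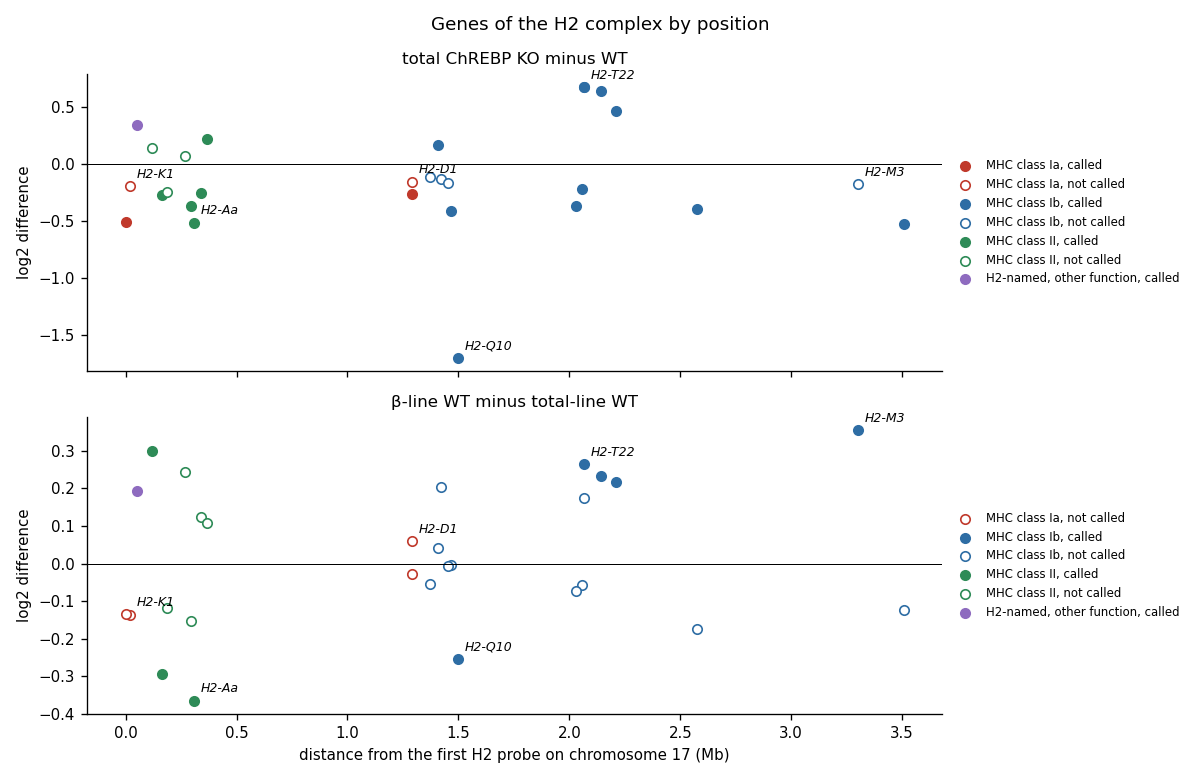
Log2 difference (y axis) of the H2- genes with a mapped probe against their distance from the first H2 probe on chromosome 17 in Mb (x axis), for total ChREBP KO minus WT (upper panel) and β-line WT minus total-line WT arrays (lower panel, with its own scale). Colours give the class and filled points were called. In the upper panel neighbours differed in direction, with H2-Q10 at -1.70, H2-Q7 at -0.42 and H2-Q4 at 0.17, and H2-T22 lay at 0.67 in the upper and 0.26 in the lower panel.

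A probe can respond to a base that differs between haplotypes rather than to the amount of RNA. For H2-Ab1 the array held a pair of overlapping probes that share 51 bases and differ at 1 of them, T51C, counted from the 5′ end of the first probe. The stretch around that base is printed on the plus strand, with the base in capitals. The first probe maps to chr17:34406296-34406355 and the other to chr17:34406305-34406363 of mm9.
H2-Ab1 first probe: caaataaacgagacTcagactctg
H2-Ab1 other probe: caaataaacgagacCcagactctg

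Their differences were -0.37 and -0.40 between total ChREBP KO and WT arrays and -0.15 and -0.13 between the WT groups. The remaining pair of H2-Ab1 probes had -0.25 and -0.44 between the WT groups, of which only the latter was called (adjusted p = 0.0225). For H2-Q7, the 3 probes gave -0.27, -0.00 and 0.45 between the WT groups, and the outer probes were both called. Of the 26 members with more than 1 probe, 1 was called in both directions between the WT groups and 3 between total ChREBP KO and WT arrays. Which of these values reflect sequence under a probe was not tested, and line, breeding and haplotype cannot be told apart in this design.

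Of the 74 genes, 28 mapped to chromosome 17 and 16 to chromosome 5, which also carries Mlxipl. On chromosome 5, the Oas probes lay at -14.4 to -14.2 Mb from the brightest Mlxipl probe, the Oasl probes at -20.3 and -20.2 Mb and the Gbp probes at -30.2 to -29.9 Mb, where a minus sign marks lower coordinates of mm9. Neighbours within the Oas cluster did not move together. Oas1a and Oas1f were lower in total ChREBP KO arrays, whereas Oas1g, which lies between them, had -0.13 (adjusted p = 0.178). Whether DNA of another strain flanks the deleted gene in the total line was not tested.

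Class II promoters carry a Y box, the site of the factor NF-Y, and the promoter of H2-Aa is printed with that box in capitals. It lies at chr17:34287774-34288073 of GRCm38.p6, on the minus strand.
H2-Aa: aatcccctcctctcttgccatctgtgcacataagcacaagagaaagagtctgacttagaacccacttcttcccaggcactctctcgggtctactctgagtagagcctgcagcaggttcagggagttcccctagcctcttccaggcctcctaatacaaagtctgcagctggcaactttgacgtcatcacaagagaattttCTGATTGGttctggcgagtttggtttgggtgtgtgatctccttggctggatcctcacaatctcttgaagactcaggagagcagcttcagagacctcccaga

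The letters CTGATTGG, searched on both strands, began 51 bases before the start of H2-Aa and were found in 9 of 20 H2- promoters and in 1 of 34 other member promoters, that of Irf8. Among class II promoters, those of H2-Aa, H2-Eb1, H2-Eb2 and H2-Oa held them, and those of H2-DMa, H2-DMb1 and H2-Ob did not. The class I promoters of H2-D1, H2-K1, H2-M11, H2-Q7 and H2-T23 held them too. Among all 27025 genes with a promoter the share was 4.70%. Of the 10 members with the box, 5 were called lower and 2 higher in total ChREBP KO arrays, and of the 44 without it, 15 were called lower and 8 higher.

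Within the wash batches, most called members had the direction of their call. The batches are parts of the arrays that made the calls, so this is no independent check. Some batches held only 1 array of a group, and the share over all called genes was not counted. Of the 38 genes called between total ChREBP KO and WT arrays, 36 had the same direction in each of the 4 batches, and Irf1 and H2-Eb2 had it in 3. Of the 28 genes called between the WT groups, 26 had the same direction in each batch, and H2-Aa and H2-T10 had it in 3. Oas1e, the gene called in ChREBPβ KO arrays, kept its direction in 3 of 4 batches. The members named for other functions gave small values, with H2-Ke6 higher (0.34) and Irf2bpl lower (-0.22, not called without the 2 high arrays) in total ChREBP KO arrays, and Irf2bp1, Irf2bp2 and Isg20l2 not called.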

How the data were processed

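RNA was hybridised by the authors to 32 Agilent 1-colour mouse arrays. The authors deposited scanner files with raw spot intensity (median over pixels), made with Agilent Feature Extraction 10.10.1.1 per the submitters' processing notes. A deposited table of log2 values, which the authors had filtered, quantile normalized and summarised by probe, served to choose the members and as an alternative. Following the study's methods, spots were kept if found, positive and well above background on 26 of 32 arrays or on 6 arrays of 1 group (39985 of 59305 spots), then quantile normalized and put on the log2 scale, and spots of the same probe were replaced by their median. The resulting 37306 probes differed from the deposited table by 0.00298 on average.

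Each probe was fitted with limma 3.58.1 (R 4.3.3) over all 32 arrays with 4 group means, and p values were two-sided and adjusted by Benjamini-Hochberg over all probes of a contrast. The fit was tested on simulated data. A gene was represented by its brightest probe. Arrays have no read depth. Their number limits the precision, the share of spots well above background ran from 64.4% to 71.1% per array, and 0 were saturated. The dimmer H2-Bl probe was well above background on 0 total ChREBP KO arrays, so it has only a bound there. With the dimmest spot well above background on each KO array as a floor, it was 1.19-fold lower than in WT arrays. It passed the brightness filter only through 6 total-line WT arrays, the group where it was higher. This difference is therefore no support for the call of H2-Bl.

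The members and all gene and marker lists were chosen with earlier results of these data known. Named were a fixed set of 24 members and, in each comparison, the 5 called members with the largest differences. Other members were named after their values had been seen, and some genes that were measured are not reported here. Probe coordinates are those of the array files (mm9), and promoters are RefSeq's (GRCm38.p6). Alternatives covered the signal, background correction, scaling, filter, wash batch, slide, replicate number, array weights, variance moderation, the probe of a gene and each array left out in turn.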

Additional observations from a re-analysis of the deposited data

Results flagged for a closer look

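The named genes were screened for arrays far from the rest of their group, over 124 groups of 8 arrays. There were 15 such cases, which came from 4 arrays and so were not independent of one another, and chance alone flags about 1 group in 20. β-line WT replicate 6 was the highest array for H2-K1 (15.94), H2-D1 (14.77), H2-T23 (14.37), H2-Ab1 (13.46), Irf7 (11.66), Irf8 (9.07), Isg15 (11.17), Ifit1 (7.78), Gbp2 (11.25) and Oasl1 (9.05). Total-line WT replicate 5 was the highest for Isg15 (11.96), Oas1a (11.02) and Oas1f (9.63). Total ChREBP KO replicate 1 stood apart for Irf1 (12.24) and total-line WT replicate 8 for Irf3 (13.61). All values are log2 normalized intensities.

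For 11 named genes the ChREBPβ KO effect differed from the total ChREBP KO effect in limma's test of the difference itself. The log2 differences between the effects were 1.53 for H2-Q10, 1.27 for Oas1a, 1.25 for Oasl2, 1.12 for Oas1f, 0.89 for Oasl1, 0.86 for Irf7, 0.81 for Oas2, 0.67 for Ifit1, 0.33 for H2-M3, -0.23 for Irf3 and -0.70 for Irf8. The calls of Ifit1 and H2-M3 were lost in 24 and 11 of 32 fits that left out 1 array, with differences from 0.56 to 0.82 and from 0.29 to 0.36. Without the 2 high arrays, the calls of H2-M3 (0.30, adjusted p = 0.0613) and Irf3 (-0.20, adjusted p = 0.0663) were lost. The call of Irf3 was also lost with both scalings to the 75th percentile, with the deposited table, with the mean of its probes and with a slide block, where the differences ran from -0.20 to -0.16. The call of Ifit1 was also lost under 6 alternatives, among them normexp, and that of H2-M3 with no filter on dim probes, array weights and the replicate block. A slide block also lost the calls of Irf7 and Irf8.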

How the results depend on the processing

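The number of members called in total ChREBP KO arrays (38) lay between 32 and 41 under every alternative, that for the difference between the KO effects (27) between 22 and 37, and that for the WT groups (28) between 23 and 35. The 1 member called in ChREBPβ KO arrays became 0 with Agilent's processed signal, normexp, scaling to the 75th percentile, no filter on dim probes, probes well above background on all arrays (where Oas1e was not tested), blocks for wash batch or for slide, moderation with trend and robust, the groups of the contrast alone, and without the 2 high arrays. That last alternative was chosen after seeing the data. Leaving out 1 array gave 32 to 40 calls for total ChREBP KO, with 32 reached without total-line WT replicate 5, 0 to 1 for ChREBPβ KO, 22 to 37 for the difference and 23 to 35 for the WT groups.

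With the replicate number as a block, the counts were 37, 1, 27 and 27, and the calls of H2-Eb1 in total ChREBP KO arrays, H2-M3 in the difference and H2-Q10 between the WT groups were lost. Deviations of same-numbered arrays correlated between -0.30 and 0.53 over 48 pairs. Between β-line WT and ChREBPβ KO arrays, the mean correlation was 0.24 for the same number and -0.03 for other numbers. Between total-line WT and total ChREBP KO arrays, it was -0.02 and 0.004. Whether same-numbered arrays form pairs was not tested. Of 45 called results of named genes, a fixed slide block lost 11 calls and no filter on dim probes lost 9. H2-T23 in total ChREBP KO arrays turned to 0.026 with the mean of its probes. The cause was not tested.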
